A study of Homo sapiens with 58 samples.

Results

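HuR, an RNA-binding protein and the product of ELAVL1, was mapped on the transcripts of 10 genes whose proteins build or regulate stress granules: G3BP1, G3BP2, CAPRIN1, TIA1, TIAL1, USP10, UBAP2L, PABPC1, ATXN2 and ATXN2L. The genes were chosen by name and function, with earlier results of these data known. Members are all HuR CLIP peaks that the deposited table places in such a gene, once 8257 repeated lines of 395471 were dropped. This gave 516 of 387214 peaks, in 9 of the 10 genes, since no peak carries the name TIA1. These peaks held 17147 sequenced fragments (tags), or 0.217% of the 7887093 tags in all peaks.

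Stress granules are cytoplasmic assemblies of mRNA and protein that form when translation initiation is blocked, for example by the oxidative stressor arsenite. G3BP1 and its paralogue G3BP2 nucleate them, CAPRIN1 and UBAP2L promote their assembly, and the deubiquitinase USP10 competes with CAPRIN1 for G3BP. TIA1, TIAL1, the poly(A)-binding protein PABPC1, ATXN2 and ATXN2L are RNA-binding or RNA-associated proteins that gather in the granules. HuR binds U-rich and AU-rich stretches in introns and 3'UTRs, is mostly nuclear in unstressed cells, and itself enters stress granules. What was measured here is HuR on the RNAs of these genes, not the amount or place of the proteins they encode.

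All 58 libraries come from Huh-7.5, a human hepatocellular carcinoma line, either mock treated or exposed to 0.5 mM sodium arsenite for 45 min, with UV crosslinking (400 and 200 mJ/cm2) and HuR immunoprecipitation throughout. Wild-type cells without the APEX reaction were separated into a cytoplasmic and a nuclear fraction, with 3 libraries for each fraction and treatment. The other libraries come from 3 lines that express the ascorbate peroxidase APEX with a nuclear localization signal (APEX-NLS), with a nuclear export signal (APEX-NES) or joined to G3BP1 (APEX-G3BP1, called G3BP below). Their cells received 0.5 mM biotin phenol for 30 min and 1 mM hydrogen peroxide for 1 min, which biotinylates proteins near the enzyme, with or without a streptavidin capture (enriched or input). The NLS and NES lines each have 2 input and 4 enriched libraries per treatment, and the G3BP line has 4 mock and 5 arsenite input and 6 mock and 7 arsenite enriched libraries. Whether a line is 1 clone is not given in the sources used here, and neither is the UTR content of the APEX-G3BP1 transgene. Nothing in the labels says that replicates are separate cultures, so p-values measure only the spread between these samples.

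Tags in peaks numbered 235471 to 673322 per library in the fractions, 1353 to 484305 in the inputs and 519 to 86419 after capture, and 5 libraries had under 2000. Levels are given as CPM, tags per 1000000 of a library's total. Of 9 hepatocyte markers, 7 had peaks (APOA1 and TTR had none), with a summed level of 655 to 2522 CPM per fraction library. Mean NEAT1, a nuclear RNA, was 125 CPM in the mock cytoplasmic and 413 CPM in the mock nuclear fraction, and 232 and 539 CPM under arsenite. MALAT1, also a nuclear RNA, was at 2394 and 2561 CPM. More RNA of a gene, more HuR on each RNA and more cells contributing to a bulk library cannot be told apart in these values.

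Of the member peaks, 396 are annotated as intron and 98 as 3'UTR, with 4 in 5'UTRs, 4 in coding sequence, 10 in transposable elements (TE), 2 in noncoding RNA and 2 in the class Other. The 98 3'UTR peaks are 19.0% of member peaks, against 12.4% among all peaks that carry a gene name. They held 40.9% of member tags, and the tag share of 3'UTR peaks over all genes was not computed. ATXN2 had the most peaks (157, of which 142 intronic), followed by USP10 (60), TIAL1 (56), G3BP1 (55), CAPRIN1 (54), UBAP2L (47), G3BP2 (46), PABPC1 (28) and ATXN2L (13). G3BP1 had 24 of the 3'UTR peaks, with 2707 tags over the fraction libraries, while USP10 had 2 such peaks with 10 tags. The annotation is that of the table, in which many intronic peaks are marked as retained introns of coding transcripts, among them all 31 of G3BP1. For the comparisons below, the values of a gene's peaks in 1 annotation class were summed per library.

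In unstressed cells, HuR tags on the 3'UTRs of the G3BP genes, CAPRIN1 and UBAP2L were several-fold higher in the cytoplasmic than in the nuclear fraction, and tags on the introns of 6 members were higher in the nuclear fraction. This comparison asks in which fraction HuR tags on each part of these transcripts are found. Of 26 member sums tested, 10 passed (limma, adjusted p under 0.05 over all sums), 4 lower and 6 higher in the nucleus; the background over all 21245 sums was 29% called, 16.2% lower and 12.8% higher. Among 3'UTR sums alone, 49.4% of all genes were lower in the nucleus, with a median log2 difference of -0.98. The members counted 4 of 9, with a median of -0.62.

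The G3BP1 3'UTR was at 345.7, 412.5 and 494.5 CPM in the 3 mock cytoplasmic libraries and at 77.2, 60.0 and 55.0 CPM in the mock nuclear ones. The groups are far apart, and the nuclear mean was 6.32-fold lower on the fitted scale (log2 difference -2.66 ± 0.17 SE, limma adjusted p = 1.39e-07). The 3'UTR share of all G3BP1 tags was 95.1% ± 2.31 (SD, n = 3) in the mock cytoplasmic and 70.5% ± 4.80 in the mock nuclear fraction.

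G3BP2, the paralogue, showed the same direction. Its 3'UTR was at 41.5, 50.9 and 71.7 CPM in the mock cytoplasmic libraries and at 7.29, 5.46 and 5.79 CPM in the nuclear ones (log2 difference -2.72 ± 0.25 SE, limma adjusted p = 3.00e-06). Its introns went the other way, from 13.8, 10.2 and 12.7 CPM in the cytoplasm to 32.1, 26.4 and 22.2 CPM in the nucleus (+1.00 ± 0.24 SE, limma adjusted p = 0.0070). Neither pair of groups overlaps, so 3'UTR peaks made up 80.8% of G3BP2 tags in the cytoplasm and 18.0% in the nucleus.

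Among the partners that bind G3BP, the CAPRIN1 3'UTR was at 22.3, 19.4 and 27.4 CPM in the mock cytoplasm and at 2.91, 9.09 and 6.76 CPM in the nucleus (log2 difference -1.63 ± 0.32 SE, limma adjusted p = 0.0017). UBAP2L, at 39.4, 42.8 and 59.0 against 14.6, 21.8 and 13.5 CPM, fell by 1.39 ± 0.24 SE on the log2 scale (limma adjusted p = 0.00071). USP10, the deubiquitinase, has almost all of its tags in introns, which rose from 26.6, 16.3 and 28.5 CPM in the cytoplasm to 65.6, 56.4 and 62.8 CPM in the nucleus (+1.32 ± 0.22 SE, limma adjusted p = 0.00055). In all of these the mock libraries of the 2 fractions do not overlap. The USP10 3'UTR held 3 tags in the mock cytoplasm and 0 in the nucleus, at the floor of 3 tags per group, so no fold is given.

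The introns of ATXN2, the RNA-binding protein that carries a polyglutamine tract expanded in a spinocerebellar ataxia, rose in the nucleus 2.43-fold, from 80.8, 73.3 and 81.2 CPM to 193.8, 195.5 and 191.2 CPM (log2 difference +1.28 ± 0.14 SE, limma adjusted p = 1.29e-05). Introns of CAPRIN1 (+0.75 ± 0.20 SE), UBAP2L (+0.72 ± 0.20 SE) and TIAL1 (+0.61 ± 0.19 SE) also rose, with limma adjusted p of 0.014, 0.014 and 0.030. Over all genes 25.1% of intron sums were higher in the nucleus. The 3'UTRs of TIAL1 (-0.08 ± 0.21 SE), PABPC1 (-0.01 ± 0.41 SE), ATXN2L (+0.11 ± 0.36 SE) and ATXN2 (-0.62 ± 0.31 SE, adjusted p = 0.15) did not pass the test, and their libraries overlap between fractions.

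The 4 3'UTR calls and the ATXN2, USP10 and G3BP2 intron calls remained when any 1 library was left out. The CAPRIN1 intron call was lost without nuclear replicate 2 or 3 (highest adjusted p 0.077), that of TIAL1 without nuclear replicate 1 or 2 or cytoplasmic replicate 2 or 3 (0.15), and that of UBAP2L without any library but cytoplasmic replicate 1 (0.081).

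**Figure D1:**
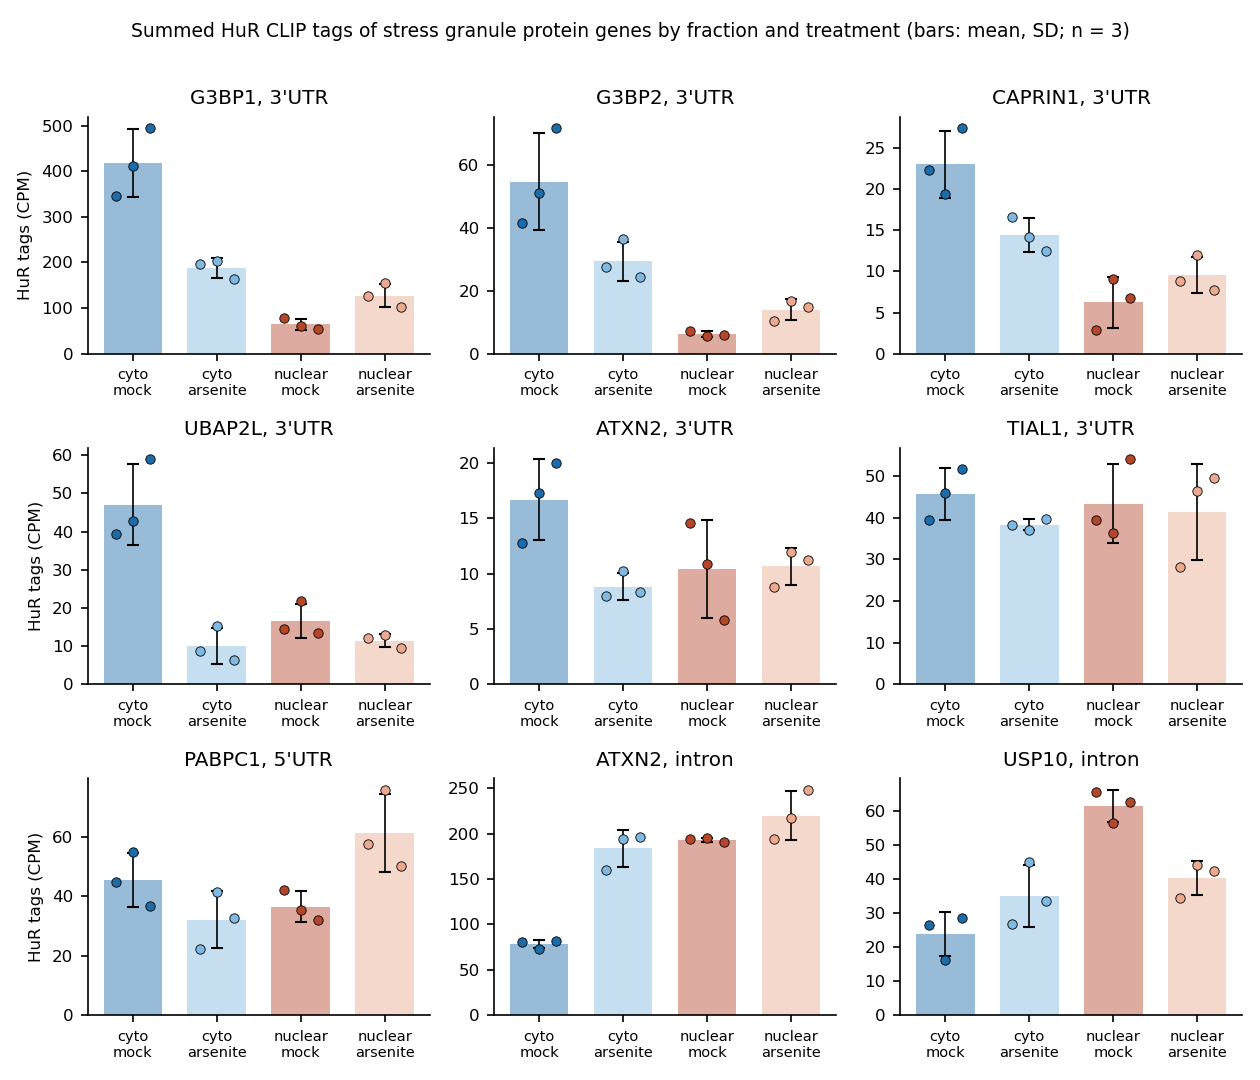
HuR tags in CPM (y axis, linear, own scale in each panel) for 9 member sums in the 4 groups of fraction libraries (x axis); points are libraries, bars the mean and error bars the SD of 3. The G3BP1, G3BP2, CAPRIN1 and UBAP2L 3'UTR libraries of the mock cytoplasm lie above those of every other group, whereas the ATXN2 intron libraries of the mock cytoplasm lie below every other group.

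Arsenite brought the fractions closer together for the G3BP genes: their 3'UTR tags fell in the cytoplasmic fraction, and those of G3BP1 rose in the nuclear fraction. This comparison asks how HuR tags on these RNAs differ between stressed and mock cells. In the cytoplasmic fraction 5 of 27 member sums passed (background 13.3% of 22884 sums), 3 lower (6.62%) and 2 higher (6.7%). In the nuclear fraction 3 of 25 passed (background 6.13% of 22212 sums), 2 higher (4.48%) and 1 lower (1.65%). The mock libraries are those of the comparison above, so the 2 sets of differences share samples. In the same cytoplasmic libraries the mean of nuclear NEAT1 went from 125 to 232 CPM, and of the 7 hepatocyte markers with peaks 5 had a lower and 2 a higher mean under arsenite. AFP went from 1257 to 553 and ALB from 483 to 149 CPM, whereas TF went from 46.9 to 56.7 and APOA2 from 1.74 to 2.80 CPM. Their part in the results was not tested.

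Under arsenite the cytoplasmic G3BP1 3'UTR was at 197.1, 202.4 and 163.5 CPM, below every mock cytoplasmic library (log2 difference -1.14 ± 0.16 SE, 2.20-fold lower, limma adjusted p = 0.00019). In the nucleus it was at 125.7, 154.4 and 102.2 CPM, above every mock nuclear library (+0.96 ± 0.16 SE, 1.95-fold higher, limma adjusted p = 0.0019). The cytoplasmic call was lost without cytoplasmic arsenite replicate 2 (adjusted p = 0.051), and the nuclear call without any 1 of the 3 nuclear arsenite libraries (highest adjusted p 0.073).

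For G3BP2, the arsenite libraries gave 27.4, 36.4 and 24.3 CPM in the cytoplasm and 10.4, 16.8 and 14.7 CPM in the nucleus. The cytoplasmic 3'UTR sum fell by 0.83 ± 0.22 SE on the log2 scale (limma adjusted p = 0.021). The nuclear difference of +0.93 ± 0.27 SE had an adjusted p of 0.058 and did not pass, although the groups do not overlap. Cytoplasmic G3BP2 introns rose by 0.71 ± 0.22 SE (limma adjusted p = 0.044), a call lost with every feature tested or when the replicate number was blocked. Both cytoplasmic calls were lost without any library but mock replicate 1 (highest adjusted p 0.17 for the 3'UTR and 0.14 for the introns).

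UBAP2L had the largest fall among the member sums that passed in the cytoplasm. Its 3'UTR was at 8.66, 15.3 and 6.26 CPM under arsenite, against 39.4 CPM or more in every mock library (log2 difference -2.04 ± 0.27 SE, 4.12-fold lower, limma adjusted p = 0.00011). Over all genes 18.6% of 3'UTR sums fell in the cytoplasm, with a median of -0.30. The nuclear UBAP2L 3'UTR, at 12.01, 12.8 and 9.53 CPM, had a log2 difference of -0.44 ± 0.25 SE and did not pass (adjusted p = 0.34).

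ATXN2 introns showed the reverse in the cytoplasm, with 160.3, 193.8 and 196.8 CPM under arsenite against at most 81.2 CPM in mock cells (log2 difference +1.199 ± 0.15 SE, 2.30-fold higher, limma adjusted p = 9.06e-05). The stressed cytoplasmic level thus overlapped the nuclear one, which was 194.6, 216.8 and 248.6 CPM under arsenite. Over all genes 13.5% of intron sums rose in the cytoplasm, and of the 9 members ATXN2 and G3BP2 did. The UBAP2L and ATXN2 calls remained without any 1 library.

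Nuclear USP10 introns fell from a mock mean of 61.6 to 40.3 CPM under arsenite (log2 difference -0.59 ± 0.15 SE, limma adjusted p = 0.034), with libraries of 34.4, 44.0 and 42.4 CPM that lie below all mock ones. Nuclear PABPC1 5'UTR tags rose from a mean of 36.5 to 61.3 CPM (+0.70 ± 0.18 SE, limma adjusted p = 0.030). Both calls were lost when any 1 of the 6 libraries was left out (highest adjusted p 0.15 and 0.18). CAPRIN1 introns in the nucleus (-0.56 ± 0.18 SE, adjusted p = 0.081) and its 3'UTR in the cytoplasm (-0.59 ± 0.23 SE, adjusted p = 0.096) did not pass.

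**Figure D2:**
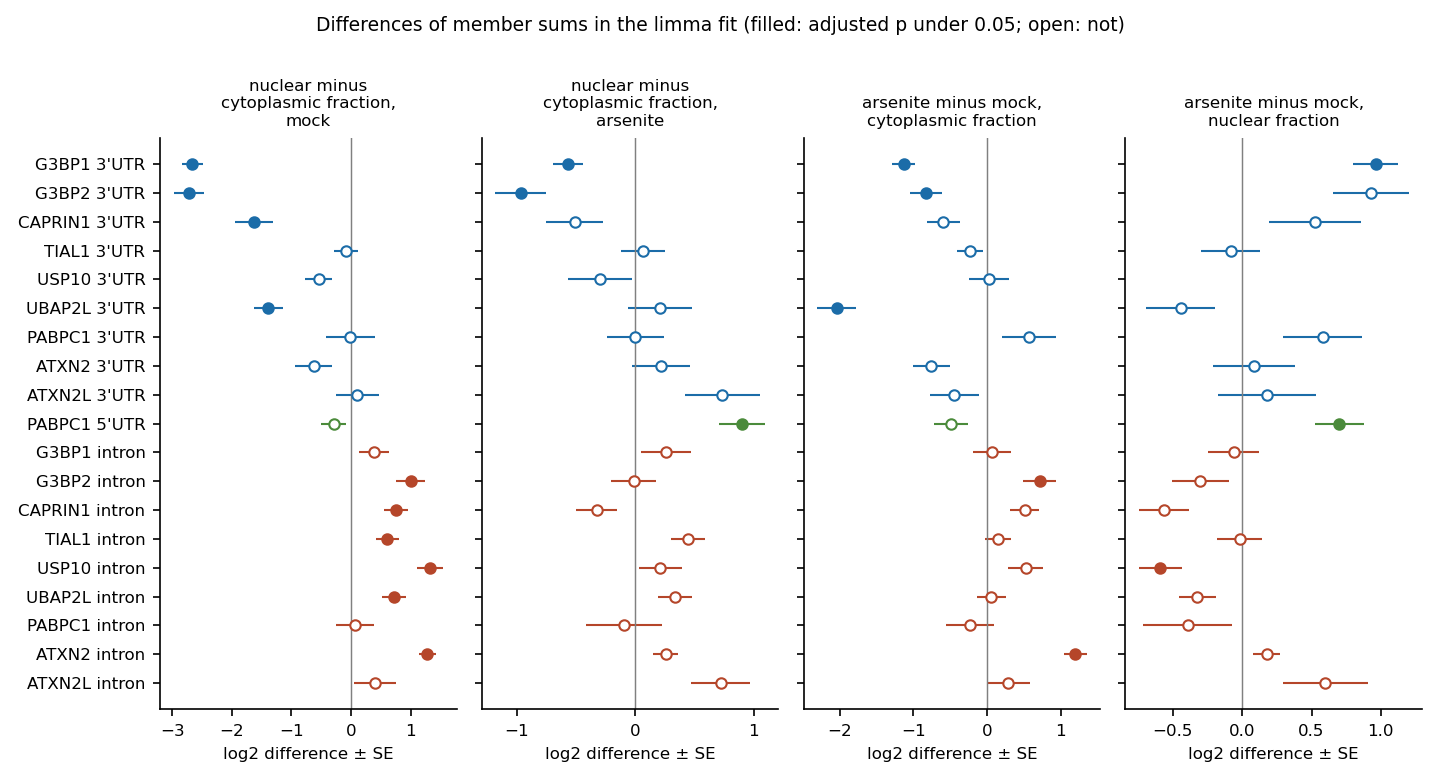
Log2 differences with their standard errors (x axes, own scale in each panel) for the 3'UTR, PABPC1 5'UTR and intron sums of the 9 genes (y axis) in 4 comparisons of 3 against 3 fraction libraries; filled points passed an adjusted p of 0.05. In mock cells the G3BP1 and G3BP2 3'UTRs lie at -2.66 and -2.72, and under arsenite at -0.56 and -0.96.

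Within arsenite-treated cells, 4 of 26 member sums differed between nucleus and cytoplasm (background 4.99% of 23772 sums), 2 lower (3.38%) and 2 higher (1.62%) in the nucleus. The G3BP1 3'UTR (log2 difference -0.56 ± 0.13 SE) and the G3BP2 3'UTR (-0.96 ± 0.21 SE) were still lower in the nucleus, with limma adjusted p of 0.0078 and 0.0067. The PABPC1 5'UTR (+0.90 ± 0.19 SE, limma adjusted p = 0.0045) and the UBAP2L coding sequence (+1.44 ± 0.35 SE, limma adjusted p = 0.015) were higher there. The UBAP2L coding sums rest on few tags, at 0, 1.71 and 1.39 CPM in the cytoplasm and 4.80, 10.4 and 5.198 CPM in the nucleus. Without 1 library at a time, the G3BP1 and G3BP2 calls were each lost in 4 of 6 fits (without nuclear replicate 1 or 3 or cytoplasmic replicate 1 or 2), the UBAP2L call in 5 (all but nuclear replicate 1) and the PABPC1 call in all 6.

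The change in the nuclear minus cytoplasmic difference between arsenite and mock cells was tested directly, as an interaction over all 12 fraction libraries. Of 29 member sums, 8 passed (background 11% of 27489 sums), 4 higher (7.05%) and 4 lower (3.99%). The G3BP1 3'UTR had an interaction of +2.10 ± 0.20 SE (limma adjusted p = 6.73e-13), the G3BP2 3'UTR +1.76 ± 0.35 SE (0.00014), the UBAP2L 3'UTR +1.60 ± 0.37 SE (0.0013) and the PABPC1 5'UTR +1.19 ± 0.29 SE (0.0025). Introns of ATXN2 (-1.02 ± 0.19 SE), CAPRIN1 (-1.08 ± 0.30 SE), G3BP2 (-1.02 ± 0.34 SE) and USP10 (-1.11 ± 0.30 SE) moved the opposite way, with limma adjusted p from 3.08e-05 to 0.039. Over all genes 24.2% of 3'UTR sums had a positive call, with a median of 0.63, and 9.37% of intron sums a negative one, with a median of -0.36. Members counted 3 of 9 3'UTR sums, with a median of 0.84, and 4 of 9 intron sums, with a median of -0.38. The interaction calls remained without any 1 library except those of USP10 introns (lost without mock or arsenite cytoplasmic replicate 2, highest adjusted p 0.075) and G3BP2 introns (lost in 8 of 12 fits, highest adjusted p 0.10).

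Much of the G3BP1 3'UTR signal lies in 1 peak, and the sum without it was not tested. The 24 G3BP1 3'UTR peaks spread over 21330 nt by the table's annotation, and the peak at chr5:151804402-151804422 on the plus strand (GRCh38.p14) holds 1411 of their 2707 fraction tags, or 52.1%. It was at 207, 239 and 294 CPM in the mock cytoplasm and 40.8, 37.3 and 22.2 CPM in the mock nucleus. Under arsenite it was at 89.5, 89.8 and 70.3 CPM in the cytoplasm and 56.0, 77.6 and 52.0 CPM in the nucleus. The 4 groups thus line up as the gene's 3'UTR sum does, with no overlap between any pair of groups compared, except the stressed nucleus and the stressed cytoplasm.

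This peak was lower in the nucleus by 2.83 ± 0.24 SE on the log2 scale in mock cells (limma adjusted p = 0.00042) and fell by 1.54 ± 0.18 SE under arsenite in the cytoplasm (0.0067). Its interaction was +2.40 ± 0.21 SE (limma adjusted p = 3.79e-18), from a variance that limma shares in part over all peaks. It was the only member peak interaction that remained without any 1 of the 12 libraries (highest adjusted p 0.00071). The mock and cytoplasmic calls were lost without mock cytoplasmic replicate 2 or 3 (highest adjusted p 0.0753 and 0.245).

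In mock cells 8 of 20 tested G3BP1 3'UTR peaks were lower in the nucleus, with 13.1% of all 3'UTR peaks called so, and 19 of 20 had a negative difference. Of the 8, the peak at chr5:151807522-151807542 was at 0 in all 3 nuclear libraries and entered the test only through the cytoplasmic ones. The peaks at chr5:151804668-151804688 and chr5:151804738-151804758 also met the filter through the cytoplasmic libraries alone. The latter was at 0, 0.909 and 0 CPM in the mock nucleus. For arsenite in the cytoplasm, 2 of 22 tested G3BP1 3'UTR peaks passed, 12 had a negative and 10 a positive difference, and the median was -0.14. Over all 3'UTR peaks 2.69% were lower there, with a median of -0.18. The peak at chr5:151805231-151805251 fell from 38.3, 53.98 and 57.995 CPM in the mock cytoplasm to 9.39, 9.10 and 11.8 CPM under arsenite (log2 difference -2.07 ± 0.25 SE, limma adjusted p = 0.0074), a call lost without mock replicate 2 or 3 (highest adjusted p 0.245). Its interaction of +2.03 (adjusted p = 0.034) and that of the peak at chr5:151806807-151806827 (+2.14, adjusted p = 0.044) were each lost in 11 of 12 fits without 1 library (highest adjusted p 0.36 and 0.30). Both were also lost with either other pseudocount and with scaling to tags in peaks, and the latter with every feature tested. The peak at chr5:151804738-151804758 was the only member peak called between the fractions under arsenite, at 0 in all 3 nuclear libraries and at 4.33, 5.68 and 3.48 CPM in the cytoplasm. It entered the test only through the cytoplasmic libraries, and the call was lost without any 1 of the 6 libraries (highest adjusted p 0.32) and with the replicate block.

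Over all members, 14 of 269 tested peaks differed between fractions in mock cells (background 2.82% of 157168 peaks), 10 lower (2.29%) and 4 higher (0.53%) in the nucleus. All 10 lower ones are among the 65 member 3'UTR peaks tested, against 13.1% lower among all 3'UTR peaks. Under arsenite 1 of 383 differed between fractions (background 0.257%). Arsenite changed 7 of 323 in the cytoplasm (background 0.76%), 5 lower (0.52%) and 2 higher (0.24%). For the interaction 3 of 489 passed (0.352%), and for arsenite in the nucleus none of 345 passed by limma (0.186%) or by edgeR, with 55 at an unadjusted p under 0.05 in limma. Of the 10 peaks lower in the mock nucleus, 8 belong to G3BP1 and 2 to G3BP2, both near the end of its 3'UTR peaks. The G3BP2 peak at chr4:75643446-75643466 fell from a mock cytoplasmic mean of 27.5 CPM to 2.85 CPM in the nucleus (log2 difference -2.50 ± 0.30 SE, limma adjusted p = 0.0023) and to 7.38 CPM in the stressed cytoplasm (-1.63 ± 0.31 SE, 0.046). The nuclear call was lost without nuclear replicate 2 or cytoplasmic replicate 2 or 3 (highest adjusted p 0.075), and the arsenite call in 5 of 6 such fits (0.27).

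UBAP2L has 3 3'UTR peaks, and the one at chr1:154270788-154270808 holds 77.7% of their fraction tags. It fell from 35.1, 31.6 and 48.5 CPM in the mock cytoplasm to 4.33, 9.10 and 4.87 CPM under arsenite (log2 difference -2.30 ± 0.30 SE, limma adjusted p = 0.0096). In ATXN2 the calls come from introns. The peak at chr12:111573028-111573048 rose in the cytoplasm from 2.13, 3.06 and 3.16 CPM to 15.9, 23.9 and 18.1 CPM (+2.08 ± 0.27 SE, limma adjusted p = 0.0098). The one at chr12:111556145-111556165, also called, went from 0, 1.02 and 0 to 4.33, 5.68 and 5.56 CPM and met the filter through the arsenite libraries alone. In mock cells the ATXN2 peaks at chr12:111588178-111588198 (+2.06, 0.0065) and chr12:111581926-111581946 (+1.499, 0.047) were higher in the nucleus, the latter not with the replicate block or a smaller pseudocount. So was a USP10 intron peak at chr16:84733573-84733593, named after its values were seen, which was at 0 in all 3 cytoplasmic libraries and at 4.37, 2.73 and 3.86 CPM in the nucleus, and so entered the test only through the nuclear libraries. It was no longer called with edgeR or the replicate block. The UBAP2L and cytoplasmic ATXN2 calls were lost without any 1 of the 3 mock libraries (highest adjusted p 0.249), and these 3 mock calls in 5 or 6 of 6 such fits (highest 0.180).

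CAPRIN1, ATXN2L and PABPC1 had no called peak. The CAPRIN1 and ATXN2L peaks with the most fraction tags lie in the 3'UTR, at chr11:34098389-34098409 with 52 tags and at chr16:28837068-28837088 with 55 tags. The CAPRIN1 peak was at 5.24 ± 1.15 CPM (SD, n = 3) in the mock cytoplasm and 2.95 ± 2.18 CPM in the mock nucleus, and its libraries overlap between the fractions. The most tagged USP10 peak, an intronic one at chr16:84746101-84746121 with 39 tags, was not called either.

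TIAL1, a paralogue of TIA1, had 3'UTR sums with means between 38.3 and 45.6 CPM in the 4 groups and no call in any fraction comparison. Its peaks did not behave alike. The peak nearest the start of the 3'UTR peaks, at chr10:119581761-119581781 on the minus strand, was higher in the mock nucleus (16.0, 14.5 and 17.4 CPM) than in the mock cytoplasm (1.06, 4.07 and 5.27 CPM), by +1.75 ± 0.35 SE on the log2 scale (limma adjusted p = 0.030). A peak 7195 nt further along, at chr10:119574566-119574586, fell in the cytoplasm from 9.57, 13.2 and 8.44 CPM to 0, 2.27 and 1.39 CPM under arsenite (-1.90 ± 0.33 SE, limma adjusted p = 0.032). The former call was lost with a smaller pseudocount and without any 1 of the 6 libraries (highest adjusted p 0.18) and the latter without any 1 of the 3 mock libraries (0.245).

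Split at their widest gap, of 5098 nt, the 22 TIAL1 3'UTR peaks form a group of 3 near the start and a group of 19 beyond it. The RefSeq span of TIAL1 is chr10:119573465-119596964, so the first of these peaks lies well inside the gene and the last beyond its end. Whether all of them belong to 1 3'UTR was not tested. The split was chosen after the values were seen and is given without a test, and most tags of the group of 3 belong to the first peak named above. The 3 peaks summed to 1.06, 5.09 and 5.27 CPM in the mock cytoplasm and 17.5, 17.3 and 21.2 CPM in the mock nucleus. The 19 peaks summed to 38.3, 40.7 and 46.4 CPM and to 21.9, 19.1 and 32.8 CPM. Both groups of libraries are separate between fractions, in opposite directions, while the libraries of the gene's whole 3'UTR sum overlap. The most tagged TIAL1 peak, an intronic one at chr10:119594058-119594078, had means between 13.998 and 18.4 CPM in the 4 groups.

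**Figure D3:**
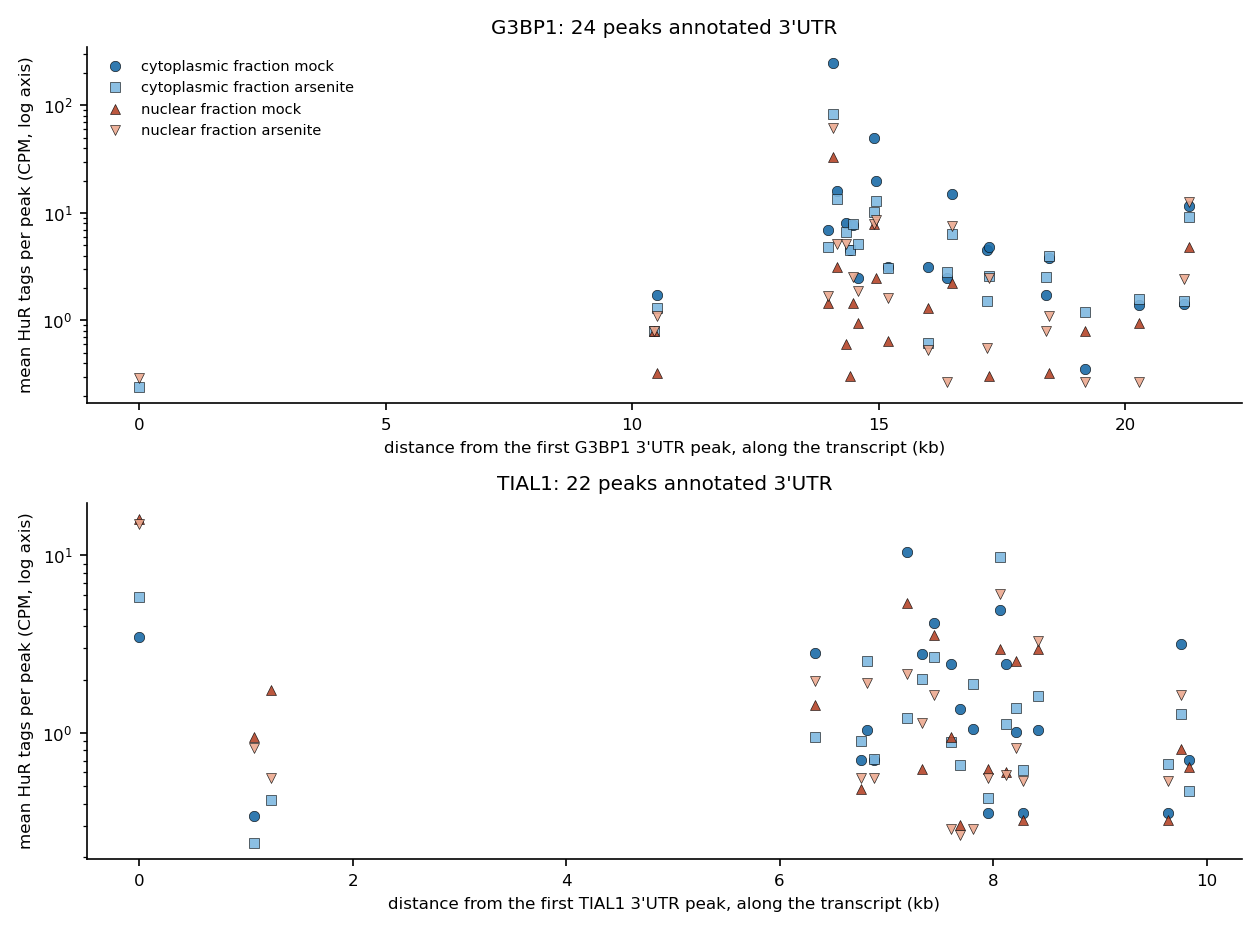
Mean CPM over 3 libraries (y axes, log scale; means of 0 are not drawn) of each 3'UTR peak of G3BP1 (top) and TIAL1 (bottom) against its distance in kb from the gene's first such peak (x axes), for the 4 fraction groups. The G3BP1 peak with the highest values lies 14076 nt from the first and has its mock cytoplasmic mean, 247 CPM, far above the others, while the first TIAL1 peak has its nuclear means, 16.0 and 15.1 CPM, above the cytoplasmic ones.

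PABPC1 stood apart in its classes: its 5'UTR rather than its 3'UTR carried most of its tags. A single 5'UTR peak on chromosome 8 held 590 fraction tags of the gene's 861. This peak was at 42.5, 51.9 and 35.9 CPM in the mock cytoplasm, 21.7, 39.2 and 31.3 CPM in the stressed cytoplasm, 42.3, 33.6 and 30.9 CPM in the mock nucleus and 56.9, 76.0 and 49.4 CPM in the stressed nucleus. The mock groups overlap, and the stressed nucleus lies above the stressed cytoplasm in all libraries, but the peak did not pass in any fraction comparison. PABPC1 has near-identical copies in the genome, and how reads shared with them were placed is not given in the sources used here, so its values are uncertain. Peaks named PABPC1 also reach chr8:100688256, beyond the end of its RefSeq span (chr8:100702916-100722088, minus strand).

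TIA1, the classic stress granule marker, had no peak under its own name. Within its RefSeq span on the minus strand (chr2:70209444-70248793, GRCh38.p14) lie 68 peaks with 2616 tags, all of them named C2orf42 in the table. None of the 68 lies inside the RefSeq span of C2orf42 (chr2:70149885-70191019). The 18 of these annotated 3'UTR summed to 26.5 ± 4.70 CPM (SD, n = 3) in the mock cytoplasm and 25.5 ± 5.98 in the stressed cytoplasm. They were at 23.6 ± 5.34 and 22.3 ± 5.196 CPM in the mock and stressed nucleus, differences smaller than the spread between libraries. The intronic peaks of the span were at 58.7 ± 9.10 CPM in the mock and 96.5 ± 0.953 CPM in the stressed cytoplasm, against 124.1 ± 5.76 CPM in the mock and 83.3 ± 6.38 CPM in the stressed nucleus. The nucleus was thus above the cytoplasm in mock cells and below it under arsenite. These peaks are given by position only and enter no count above.

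In the APEX libraries the members held few tags, and only gene sums were tested, with the library set as a covariate. In 5 pairs of set JL0388 libraries the counts agreed within sampling noise (lowest p 0.065 over random tables). Each such pair was counted as 1 sample in group means and their n, while the tests below use every library and counting pairs once is an alternative. Between enriched libraries of the NLS and NES lines, 1 of 13 member sums passed in mock cells (background 20.8% of 2871 sums) and 2 of 13 under arsenite (background 14.1% of 3704 sums), all 3 intronic. Each was at 0 in every NES library and entered the test only through the NLS libraries, so its direction was set by the filter and the counts are read no further. All calls over all genes were higher in mock cells, against 71.4% with edgeR. UBAP2L introns under arsenite were at 55.5, 40.1, 19.1 and 17.4 CPM in the NLS libraries, where they held 29 tags, and at 0 in all 4 NES libraries. With 3 tags over the NES group as the floor, the pooled libraries gave 9.65-fold. This pools sets JL0388 and JL1024, which differ in level, so it is not a bound for either set. The limma adjusted p was 0.020 and is not read as support, since the filter set the direction. The call was lost without any 1 of the NLS libraries (highest adjusted p 0.10) and kept in the 8 alternative settings.

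USP10 introns under arsenite (6 tags) and PABPC1 introns in mock cells (7 tags) were also at 0 in every NES library. Both calls were lost with every non-zero feature tested, where that of UBAP2L was kept. Like UBAP2L, they are given as values only. By the same floor the pooled USP10 value was 2.00-fold, and the PABPC1 value does not exceed its floor. The USP10 call was lost without any 1 of the 8 libraries (highest adjusted p 0.24) and the PABPC1 call without any 1 of the NES libraries (0.18). In the fractions under arsenite, none of 9 member intron sums passed between nucleus and cytoplasm, UBAP2L (+0.34, limma adjusted p = 0.20) and USP10 (+0.21, 0.60) included, and over all genes 1.41% of intron sums were higher and 0.76% lower. Both were higher in the mock nucleus, where those of PABPC1 did not pass.

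Near APEX-G3BP1, the G3BP1 3'UTR under arsenite was at 361 and 321 CPM in library set JL0388 and 42.7 and 74.7 CPM in set JL1024. The NES libraries of the same sets were at 157 and 91.8 CPM and at 4.14 and 1.77 CPM. The G3BP libraries were higher within each set and overlap the NES libraries across sets. The fit gave +2.51 ± 0.69 SE (limma adjusted p = 0.036), as the only 1 of 8 member sums to pass, with a background of 3.12% of 2275 sums. The median of all 3'UTR sums in that comparison was itself +1.37, and scaling to tags in peaks moved the median of all sums by -0.62, under which the call was lost. It was also lost with a smaller pseudocount, every feature tested, the replicate number as a block or the agreeing JL0388 pairs counted once, and without G3BP replicate 4, 5 or 7 or NES replicate 2, 3 or 4 (highest adjusted p 0.17). G3BP1 is the APEX fusion partner of this line, and whether the transgene adds tags to these peaks was not tested.

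In mock cells, none of 7 member sums differed between G3BP and NES enriched libraries (background 0%; none at an unadjusted p under 0.05; none with edgeR). Without libraries under 2000 tags 4 of 15 passed, all higher near G3BP, as did 35.9% of all 6495 sums. This drops both JL0388 libraries of the G3BP line, so the difference then rests on set JL1024 alone. Arsenite against mock gave none of 8 member sums in the G3BP enriched libraries (background 0%; 2 at an unadjusted p under 0.05), none of 14 in the NLS libraries (0%; 2) and none of 7 in the NES libraries (0%; 0), and none with edgeR in each. The G3BP1 3'UTR had the lowest p among the 8, with a log2 difference of +3.01 ± 1.10 SE (unadjusted p = 0.0062, limma adjusted p = 0.23), and the median of all 3'UTR sums was +1.31. Its mock libraries were at 158, 6.61, 0, 0, 38.9 and 31.8 CPM, of which the highest rests on 1 tag. The arsenite libraries of set JL0361 were at 228, 69.5 and 66.8 CPM, with 3, 42 and 35 tags.

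Against its own inputs, 2 of 14 member sums were lower in the G3BP enriched libraries (background 8.12% of 5015 sums): introns of TIAL1 (-2.32 ± 0.75 SE) and UBAP2L (-2.06 ± 0.67 SE), each with a limma adjusted p of 0.036. The median of all intron sums was -1.32. Same-numbered libraries of set JL0361 deviated together, but this fit did not pair them. With the number as a block 4 of 14 member sums passed (28.6%), all lower, while 35.6% of all sums passed. Without 1 library the TIAL1 call was lost in 13 of 22 fits and the UBAP2L call in 12 of 19 (highest adjusted p 0.128 and 0.115), and neither was left with scaling to tags in peaks, a smaller pseudocount, every feature, at least 10 tags or pairs counted once. UBAP2L was also lost without libraries under 2000 tags. The input libraries of the G3BP line did not differ from those of the NLS and NES lines in any of 24 member sums (background 0%; none at an unadjusted p under 0.05; none with edgeR). Arsenite changed none of 21 in the inputs (background 0%; 2 at an unadjusted p under 0.05; 2 called with edgeR, which called 7.202% of all sums).

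**Figure D4:**
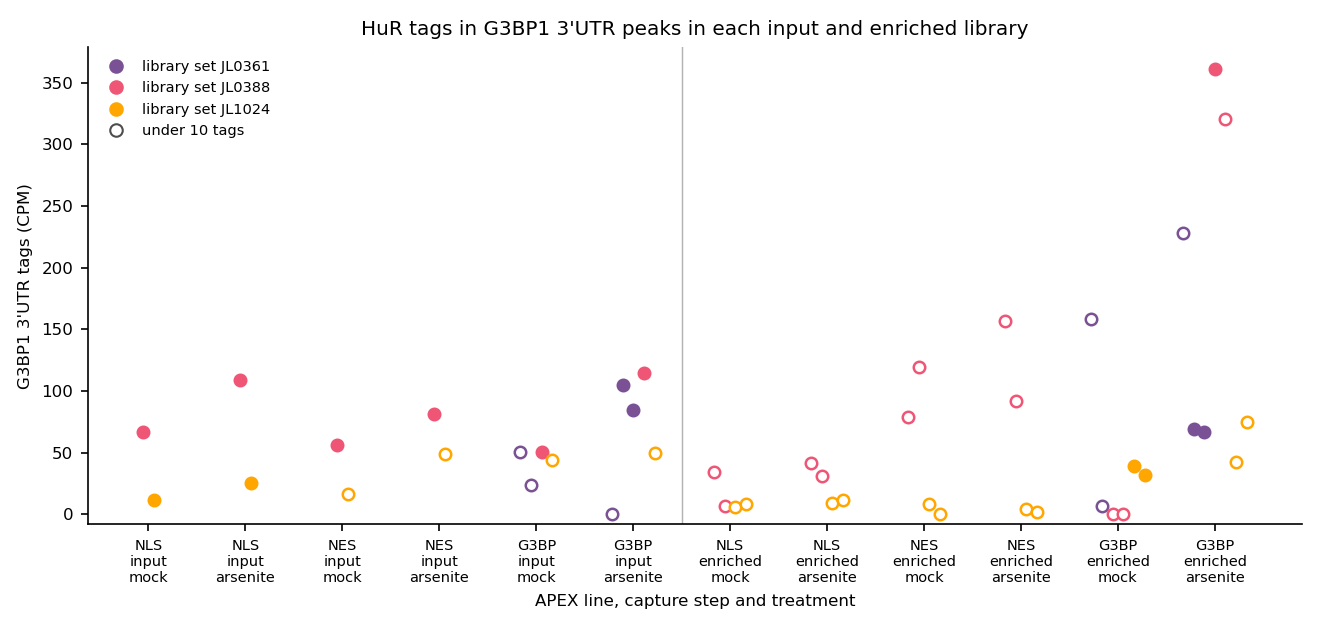
HuR tags in G3BP1 3'UTR peaks in CPM (y axis, linear) in each input (left) and enriched (right) library by APEX line and treatment (x axis), coloured by library set; open points rest on fewer than 10 tags. Enriched arsenite libraries of the G3BP line reach 361 CPM, but most enriched points are open and the sets differ in level within a line.

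The 25 other stress granule genes listed for comparison (among them FMR1, YTHDF1 and DDX6) were described by their 3'UTR sums. The list was chosen with earlier results of these data known, so its counts are descriptions only. In the mock nucleus 21 of 22 tested were lower than in the cytoplasm (median log2 difference -1.96, against 49.4% lower and a median of -0.98 over all 3'UTR sums), led by STAU1 (-2.89) and the helicase DDX6 (-2.85). In the nucleus under arsenite 12 of 21 rose and none fell (median 1.04, against 13.8% higher and a median of 0.39 over all), with DDX6 at +2.38 and the m6A reader YTHDF1 at +2.19. In the cytoplasm 8 of 23 fell (median -0.58, against 18.6% lower and -0.30 over all), among them YTHDF2 (-1.14), and none rose. Under arsenite 8 of 21 were still lower in the nucleus (median -0.52, against 9.89% lower and -0.17 over all), STAU1 by -1.01 and LSM14A by -0.998. The interaction passed for 16 of 23, all positive (median 1.47, against 24.2% higher and 0.63 over all). In the enriched libraries under arsenite, IGF2BP3 was lower near NLS than NES (-2.53, 1 of 14; 0.598% lower over all) and IGF2BP1 higher near G3BP than NES (+2.63, 1 of 13; 5.52% higher over all).

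Across the 12 fraction libraries, the G3BP1 3'UTR sum followed that of G3BP2 (Pearson r = 0.97 on the log2 scale) and CAPRIN1 (0.88), but not that of TIAL1 (0.11). Among 575 or 576 genes with at least 500 3'UTR tags, WSB2 was most like G3BP1 (0.991), and CMPK1 was most like G3BP2 (0.989). TOMM20 followed CAPRIN1 (0.958), SPTBN1 followed UBAP2L (0.950) and ITCH followed ATXN2 (0.916). The likeliest partners of TIAL1 (VMP1, 0.643), ATXN2L (PPP6R2, 0.673) and PABPC1 (JUN, 0.587) were weaker, and USP10 (DTD2, 0.786) rests on 10 tags. These correlations share the libraries, their totals and the 4 groups, and are descriptions only.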

How the data were processed

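HuR CLIP tags were counted in 20-nt peaks in 58 libraries of 16 groups. Bowtie2, SAMtools, bedtools and HOMER and the build GRCh38.p14 are named in the submitters' processing notes, with no versions or roles given. The values deposited by the authors are a signal, tags in a peak divided by the library's total. The deposited table also gives, by the authors, counts of libraries with a non-zero value and a peak score, neither used in a test. Whole tags were recovered for 100% of values (tolerance 0.02), and CPM are tags per 1000000 of that total (4662 to 2622677). Whether peak starts count from 0 or 1 is not given in the sources used here. The genes and lists were chosen with earlier results of these data known.

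Repeated lines were dropped, and peaks of a gene and annotation class were summed. limma 3.58.1 (R 4.3.3; lmFit, eBayes with trend, two-sided) was fitted on log2(value + 2.283806e-06) over all features, if non-zero in no fewer libraries than the smaller group holds, with Benjamini-Hochberg adjustment at 0.05. Fold changes are on that scale and understate low values. The fit was tested on simulated data. Alternatives were other pseudocounts, filters and scaling, edgeR 4.0.16 on recovered tags, the replicate number as a block, and leaving out libraries.

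Same-numbered fraction libraries did not deviate together (correlations -0.048 to 0.031). Those of G3BP enriched and input did in 5 of 5 pairs (0.104 to 0.216), and those of mock and arsenite inputs in 2 of 2 (0.206 to 0.238). Mock and arsenite G3BP enriched libraries passed 0.1 in 2 of 6 pairs (highest 0.106). All these pairs are of set JL0361. The main fits did not pair them, and the number entered as a block only as an alternative. Named are the 10 genes, each gene's most tagged peak, the 3 largest called peak differences each way per fraction comparison, all called sums, the most similar gene by 3'UTR sums, and 2 called genes each way of the 25 listed, of which 1 is not reported here.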

Additional observations from a re-analysis of the deposited data

Results flagged for a closer look

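The nuclear minus cytoplasmic difference changed with arsenite, by the interaction test, for 8 member sums. These were the 3'UTRs of G3BP1 (2.10 on the log2 scale), G3BP2 (1.76) and UBAP2L (1.60), the PABPC1 5'UTR (1.19), and the introns of ATXN2 (-1.02), CAPRIN1 (-1.08), G3BP2 (-1.02) and USP10 (-1.11). It also changed for 3 G3BP1 3'UTR peaks, chr5:151804402-151804422 (2.40), chr5:151805231-151805251 (2.03) and chr5:151806807-151806827 (2.14).

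Single libraries lay far from the rest in 8 of 25 combinations of 5 member sums with groups of 4 to 10 libraries, all in 4 of the study's groups. Chance marks about 1 in 20 such groups for continuous values, a rate that does not hold here, since in 5 of the 8 all other libraries are at 0. The G3BP1 3'UTR was at 158 CPM in G3BP enriched mock replicate 1, from 1 tag. TIAL1 introns were at 117.3 CPM in G3BP input arsenite replicate 1 (2 tags), 8.74 CPM in NES enriched mock replicate 3 (1 tag) and 17.1 CPM in G3BP enriched arsenite replicate 6 (2 tags). UBAP2L introns were at 19.0 CPM in NES enriched mock replicate 4 (2 tags) and 12.7 CPM in G3BP enriched mock replicate 6 (12 tags). USP10 introns were at 19.9 CPM in NES enriched mock replicate 2 (1 tag), and PABPC1 introns at 2.99 CPM in G3BP enriched mock replicate 5 (1 tag).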

How the results depend on the processing

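No call changed direction. Of 258 alternative fits of the 36 called sums 232 kept the call, and of 175 fits of the 25 called peaks 155 did; without 1 library, 113 of 301 and 118 of 168 lost it. Leaving out a library also lowers the filter, so that more features are tested. Few tags limit all enriched libraries.

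Called member peaks between fractions in mock cells were 24 of 494 with every non-zero feature (2.00% of all peaks called) and 32 of 94 with at least 10 tags (28.9%), against 14 of 269 (2.82%). Percentages below are likewise over all features in that setting. Under arsenite they were 3 of 506 (0.358%) and 10 of 146 (5.72%), 2 of 383 when scaled to tags in peaks (0.301%) and 5 of 383 with edgeR (0.655%), against 1 (0.257%). For arsenite in the cytoplasm they were 17 of 323 with a smaller pseudocount (3.49% of all peaks) and 15 of 126 with at least 10 tags (15.6%), against 7 of 323 (0.76%). In the nucleus they were 2 of 499 with every feature (0.245%) and 11 of 117 with at least 10 tags (5.36%), against 0 (0.186%). For the interaction they were 6 of 245 with at least 10 tags (1.93%) and 1 of 489 when scaled (0.313%), against 3 (0.352%). Called sums for arsenite in the nucleus were 5 of 22 with at least 10 tags (13.6%), against 3 (6.13%).

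NLS against NES in mock cells gave 0 sums with a larger pseudocount (0.697%), every feature (0.0940%), at least 10 tags (22.4%) or edgeR (0.488%) and 3 of 15 with pairs counted once (19.3%), against 1 (20.8%). Under arsenite it gave 1 with a larger pseudocount (7.91%), every feature (1.02%), edgeR (9.80%), the replicate block (5.05%) or pairs counted once (3.13%), against 2 (14.1%). G3BP against NES in mock cells gave 4 of 15 without libraries under 2000 tags (35.9% over all sums), then from set JL1024 alone, against 0. Under arsenite it gave 2 of 8 with a larger pseudocount (6.86%) and 0 with a smaller one (0.308%), every feature (0.201%), scaling (0%), the replicate block (2.29%) or pairs counted once (0.781%), against 1 (3.12%). Enriched against input gave 5 of 14 with edgeR (37.5% over all sums), 4 of 14 with the replicate block (35.6% over all sums) and 0 with a smaller pseudocount (2.87%), every feature (0.00380%), at least 10 tags (2.83%), scaling (0%) or pairs counted once (3.51%), against 2 (8.12%). Arsenite in the inputs gave 2 of 21 with edgeR (7.202%), against 0 (0%).

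With the replicate number as a block, the fraction sums called were 10, 4, 4, 3 and 8, against 10, 4, 5, 3 and 8, the peak call between fractions under arsenite was lost (0 against 1), and 11 peaks against 14 were called between mock fractions.

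Without 1 library, called peaks ranged from 0 to 28 between mock fractions, 0 to 0 between arsenite fractions, 0 to 35 for arsenite in the cytoplasm, 0 to 7 in the nucleus and 1 to 3 for the interaction. Called sums ranged in the same order from 7 to 10, 0 to 2, 2 to 7, 0 to 1 and 6 to 8. They ranged from 0 to 2 (mock) and 0 to 1 (arsenite) for NLS against NES, 0 to 2 for G3BP against NES under arsenite and 0 to 5 for enriched against input, and stayed at 0 in the other APEX comparisons.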
